A study of Mus musculus with 6 samples.

Results

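The genes described here encode the proteins of the cytosolic ribosome in the fetal liver of mice that carry an editing-deficient ADAR1. Members were taken from the table of raw counts as protein-coding entries whose symbol starts with Rpl or Rps and a digit, or is Rpsa, Rplp0, Rplp1 or Rplp2, without the Rps6k kinases. This symbol rule found 140 of the 37576 genes in the table. Of these, 76 are the established ribosomal proteins, called core genes below: 42 of the large subunit, 31 of the small subunit and the 3 genes of the P stalk. A further 8 are paralogues of core genes, 55 carry symbols ending in -ps although the table annotates them as protein-coding, and 1, Rps19bp1, encodes a protein that binds RPS19 and is not itself part of the ribosome. All 76 core genes passed the filter on low counts, together with 6 paralogues, 13 of the -ps entries and Rps19bp1, which made 96 members tested and 44 not tested.

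The study compared whole fetal livers of C57BL/6 embryos at embryonic day 12.5. There were 3 livers homozygous for the E861A allele of Adar (numbers 6, 16 and 19, all male) and 3 wild-type livers (number 2, male, and numbers 15 and 17, female). E861A is a point mutation in the deaminase domain of ADAR1 that takes away its catalytic activity, and every cell of the embryo carries it. Each liver was dispersed to single cells and total RNA of the whole suspension was sequenced. Nothing in the labels names litters or extraction days. The p-values of genes and read shares rest on the spread between these 6 livers. Those of editing sites do not, because reads were summed over the livers of a genotype.

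Ribosomal proteins and ribosomal RNA form the small subunit, which decodes the messenger RNA, and the large subunit, which joins amino acids. Many ribosomal protein messenger RNAs start with a C followed by a run of pyrimidines, the terminal oligopyrimidine tract, through which mTORC1 controls their translation. Red cell precursors of the fetal liver depend on ribosome supply, and in people the loss of a copy of certain ribosomal protein genes causes Diamond-Blackfan anaemia.

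The start of the transcript was read from RefSeq promoter windows of build GRCm38.p6, with 250 bases before and 50 after each start. This build is later than the NCBIM37 of the counts. By symbol, 56 of the 76 core genes had an entry, with 66 starts between them. The tract searched was a C at the first transcribed base followed by 4 bases that are each C or T, on the transcribed strand only. It stood at 13 of the 66 core starts (19.7%), against 823 of 32851 starts in the whole table (2.5%). With the C allowed within 5 bases of the listed start, 29 core starts (43.9%) and 6027 of all starts (18.3%) had it. Of the 13 core genes with the tract at the start, 5 are shown here, with 10 bases before and 20 from the start onwards, and with the first 5 transcribed bases in capitals.

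Rps27 (chr3:90213629-90213658, minus strand): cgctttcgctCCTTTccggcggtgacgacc

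Rpl38 (chr11:114668570-114668599, plus strand): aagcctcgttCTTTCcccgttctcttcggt

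Rps18 (chr17:33955646-33955675, minus strand): cacttccgctCTCTCttccacaggaggcct

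Rpl28 (chr7:4792955-4792984, plus strand): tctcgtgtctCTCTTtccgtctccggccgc

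Rplp2 (chr7:141447641-141447670, plus strand): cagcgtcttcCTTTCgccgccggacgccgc

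The paralogues had 9 starts from 7 genes, none with the tract at the listed start and 2 with it within 5 bases. Those 2 are 22.2% of the paralogue starts, beside 18.3% of all starts. The windows of 5 paralogues that passed the filter on low counts are also shown, with the same bases in capitals. The core windows above were picked for having the tract and these were not, so the 2 sets are not a fair contrast. The windows of Rps27l and Rpl22l1 have the tract within 5 bases of the listed start.

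Rpl36al (chr12:69184048-69184077, minus strand): ccgtcgctcaGGTTCagttccgacttccgc

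Rpl7l1 (chr17:46782637-46782666, minus strand): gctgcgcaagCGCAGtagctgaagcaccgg

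Rpl39l (chr16:10170218-10170247, plus strand): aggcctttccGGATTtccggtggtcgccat

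Rps27l (chr9:66946076-66946105, plus strand): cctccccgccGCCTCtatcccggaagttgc

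Rpl22l1 (chr3:28805498-28805527, plus strand): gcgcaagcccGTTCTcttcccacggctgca

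A listed start is an annotated start and not one measured in these livers, so the letters describe the annotation.

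The libraries held 35280460 to 43080042 reads counted in genes for E861A and 39192271 to 43733715 for wild type. Factors of the trimmed mean of M-values (TMM), which scale each library, were 1.004 to 1.062 in E861A livers and 0.88 to 1.10 in wild-type livers, with 1.10 in wild type 2 and 0.88 in wild type 15. Levels are given as CPM, reads per 1000000 of the TMM-scaled library total. Adar itself averaged 317.7 ± 37.5 CPM in E861A livers and 64.3 ± 12.7 CPM in wild-type livers (SD, n = 3 each), and since the mutation changes a codon this level does not check the labels. All 40 marker genes of the cell types looked for were found, and none of them was without a read in all 6 libraries. The lowest, Cd3e, had only 1 read over the 6 libraries together. Summed erythroid markers ran from 14009 to 14871 CPM in E861A livers and from 17320 to 43009 CPM in wild-type livers, with 0 of 8 genes higher and 4 lower at the threshold. Summed hepatoblast markers ran from 19432 to 28358 CPM in E861A livers and from 15821 to 20012 CPM in wild-type livers, with 1 of 6 higher. Genes of tissue dissociation and RNA quality summed to between 342.6 and 720.7 CPM in E861A livers and to between 133.4 and 265.9 CPM in wild-type livers, with 4 of 7 higher. Embryonic globins summed to between 13576 and 14499 CPM in E861A livers and to between 7031 and 10676 CPM in wild-type livers, megakaryocyte markers to between 494.2 and 630.5 CPM and between 231.3 and 456.9 CPM, and granulocytic markers to between 241.5 and 488.9 CPM and between 99.3 and 228.5 CPM. At the threshold 1 of 3 embryonic globins, 0 of 3 megakaryocyte markers and 1 of 3 granulocytic markers were higher, and none was lower. Taken singly, Hbb-bh1, Pf4, Itga2b and Elane overlapped between the genotypes, and the other genes of these lists did not. The counts in all marker lists stand beside 7.77% higher and 4.26% lower of all genes tested. The erythroid sum was lower in E861A livers without overlap. The dissociation, embryonic globin, megakaryocyte and granulocytic sums were higher without overlap. The part of these lists in the values of the ribosomal protein genes was not tested. In whole livers, fewer cells of a type and less RNA per cell cannot be told apart.

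Ribosomal protein genes took a large part of the reads in every liver, with the higher values in the E861A livers. They held 9.003%, 8.23% and 7.44% of reads counted in E861A 6, 16 and 19, against 6.93%, 6.78% and 7.16% in wild type 2, 15 and 17. Every E861A liver stood above every wild-type liver, E861A 6 was the highest of all, and the wild-type livers lay close together. The means were 8.22 ± 0.78% in E861A livers and 6.96 ± 0.19% in wild-type livers (SD, n = 3 each), a difference of 1.27 percentage points. An exact two-sided permutation test over the livers gave p = 0.1, the smallest value that 3 against 3 allows. Without E861A 6 the difference was 0.877 percentage points.

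On the TMM-scaled totals the groups overlapped. The members summed to 89680, 81960 and 70113 CPM in E861A 6, 16 and 19, against 62858, 77280 and 74341 CPM in wild type 2, 15 and 17. E861A 19 lay below wild type 15 and 17, and wild type 2 was the lowest. The mean was 80584 ± 9856 CPM in E861A livers and 71493 ± 7621 CPM in wild-type livers, with an exact permutation p of 0.3. The share and the scaled sum differ in what they divide by, and the scaling factors above are lowest in wild type 15 and highest in wild type 2.

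**Figure D1:**
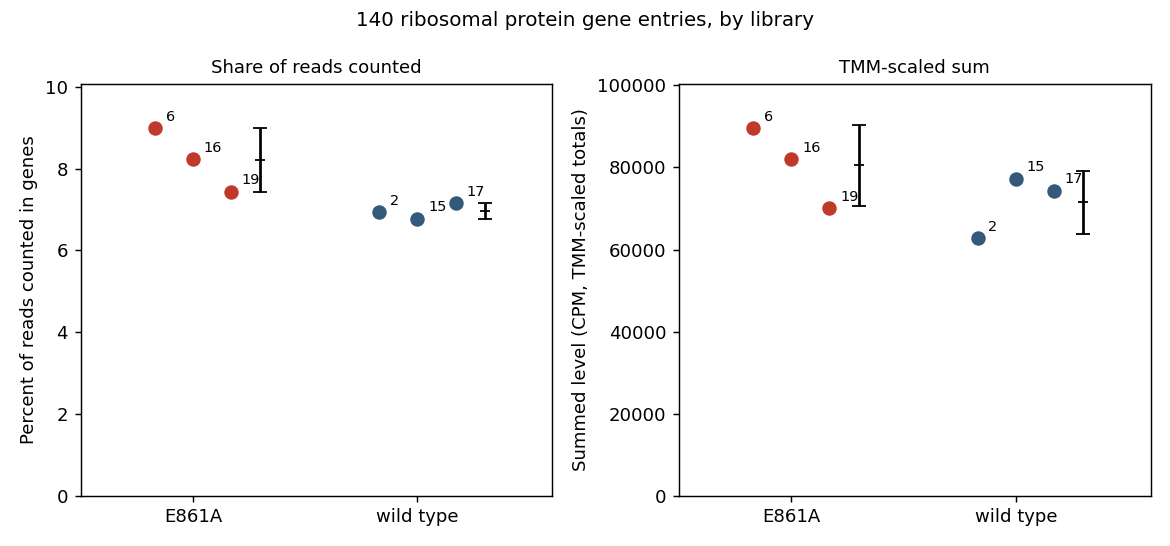
Points are livers, labelled by number, with E861A on the left and wild type on the right of each panel; the bar beside each group is the mean ± SD (n = 3). The left panel gives the percent of counted reads in the 140 members, where the E861A livers at 7.44% to 9.003% lie above the wild-type livers at 6.78% to 7.16%; the right panel gives their summed CPM on TMM-scaled totals, where the groups overlap.

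The reads came almost wholly from the core genes. Core genes held 8.13 ± 0.77% of reads in E861A livers and 6.88 ± 0.19% in wild-type livers, paralogues 0.0853 ± 0.0125% and 0.0765 ± 0.0034%, and the -ps entries 0.0035 ± 0.0005% and 0.0030 ± 0.0003% (E861A and wild type in each pair, SD, n = 3). Both subunits had higher values in the E861A livers. Large-subunit genes, here with the P stalk, held 4.68 ± 0.41% in E861A livers and 3.94 ± 0.11% in wild-type livers, and small-subunit genes 3.46 ± 0.36% and 2.94 ± 0.08%, each with an exact permutation p of 0.1. Reads of the small subunit over reads of the large subunit gave 0.755, 0.729 and 0.731 in E861A 6, 16 and 19 and 0.756, 0.741 and 0.740 in wild type 2, 15 and 17. That ratio overlapped between the genotypes (exact permutation p = 0.5).

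No single ribosomal protein gene passed the test between the genotypes. With the quasi-likelihood test of edgeR and Benjamini-Hochberg adjustment over all genes, 0 of the 96 members tested had an adjusted p under 0.05, where 12% of all 16511 genes tested did (7.77% higher and 4.26% lower in E861A). At an unadjusted p under 0.05 there were 8 members (8.33%), against 27.7% of all genes. They included Rpl19, Rpl27, Rpl32, Rpl36, Rps19, Rps20 and the paralogue Rps4y2, and all 8 had higher means in E861A livers. DESeq2 called 1 member higher, beside 9.09% of its genes higher and 9.33% lower, and limma-voom called 0. The authors' deposited table lists 90 of the members and calls 0 of them, where it calls 8.44% of its genes higher and 4.84% lower in E861A.

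Most core genes nonetheless had a small positive log2 fold change of E861A over wild type. Their median was 0.21 (quartiles 0.12 and 0.30), beside a median of 0.04 over all genes tested, and 65 of the 76 (85.5%) were positive beside 53.3% of all genes. The lowest value was -0.15 for Rps3a, values such as 0.49 for Rps19 and 0.47 for Rpl36 stood near the upper end, and the interquartile width was 0.18, beside 0.65 for all genes. Groups did not overlap for 20 core genes with E861A above wild type (26.3%, beside 19.4% of all genes) and for 0 with E861A below (14.5% of all genes). Among these 20 were Rpl9, Rpl13, Rpl13a, Rpl18, Rpl19, Rpl23, Rpl26, Rpl27, Rpl32, Rpl34, Rpl36, Rpl38, Rps12, Rps14, Rps19, Rps20, Rps23, Rps27 and Rps28.

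**Figure D2:**
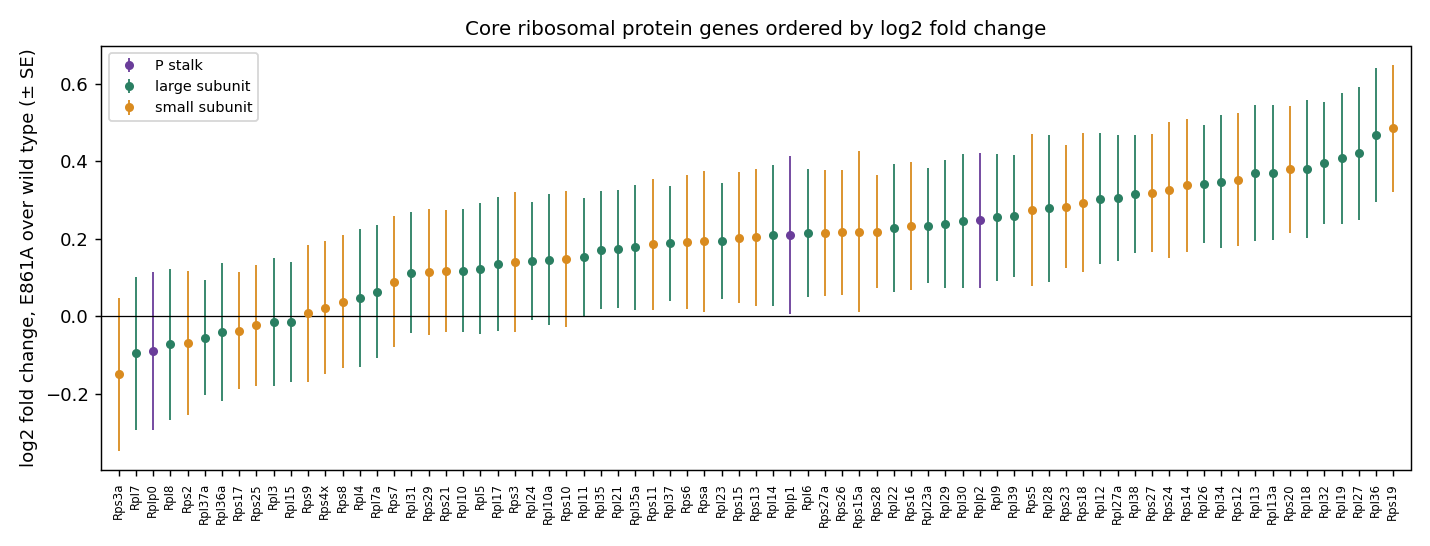
Each point is the log2 fold change (E861A over wild type, vertical axis) of a core gene reported here, ordered from lowest to highest along the horizontal axis, with the standard error as the bar and the colour giving the P stalk, the large or the small subunit. Both subunits are spread along the order, the P stalk genes lie at -0.09, 0.21 and 0.25, most points lie above 0, and the ends of the order are Rps3a at -0.15 and Rps19 at 0.49.

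The core genes moved together from liver to liver, within the genotypes as well as between them. Their level was highest in E861A 6 for 53 genes, in E861A 16 for 18 and in wild type 15 for 5. It was lowest in wild type 2 for 64 genes and in E861A 19 for 12. The median deviation of the core genes from each gene's mean log2 level was 0.27, 0.14 and -0.09 in E861A 6, 16 and 19, and -0.26, 0.02 and -0.05 in wild type 2, 15 and 17. Against these values, the median deviation of all genes tested lay between -0.03 and 0.07 in every liver. Within each genotype 1 liver stood apart and low, E861A 19 and wild type 2, and the other livers of that genotype were closer together.

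The size of this shift varied with the livers and the scaling used. Leaving out E861A 6, E861A 16 or wild type 2 each gave a core median of 0.12, beside all-gene medians of 0.06, 0.00 and 0.08. Leaving out E861A 19 gave 0.28, beside -0.03 for all genes. With sex as a covariate the core median was 0.35, beside 0.02 for all genes, and 1 member, the entry Rps12-ps3, passed as higher, beside 3.21% of all genes higher and 0.236% lower in that fit. Rps12-ps3 had 11, 8 and 14 reads in E861A 6, 16 and 19, against 0, 12 and 13 reads in wild type 2, 15 and 17, so that call rests on the absence of reads in the male wild-type liver. Among male livers alone (3 E861A and 1 wild type) the core median was 0.36, beside 0.02, and wild type 2, the liver with the lowest values for most core genes, is the male wild-type liver. With library totals and no TMM factors the core median was 0.27, beside 0.10 for all genes, and 10 members passed the test as higher, among them Rpl13, Rpl18, Rpl19, Rpl27, Rpl32, Rpl36, Rps12, Rps19 and Rps20. Upper-quartile factors gave 2, of which Rps19 was 1. No setting called a member lower.

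In the large subunit the median log2 fold change was 0.21, with 36 of 42 genes positive (85.7%, beside 53.3% of all genes), 0 past the test (beside 12%) and 13 not overlapping with E861A above (31.0%, beside 19.4%). Rpl36, a protein of the large subunit, was among the higher values. It had 510.2, 536.0 and 409.4 CPM in E861A 6, 16 and 19, against 303.6, 386.6 and 362.0 CPM in wild type 2, 15 and 17. All 3 E861A livers were above all 3 wild-type livers, with wild type 2 the lowest. Its log2 fold change was 0.47 (SE 0.17, adjusted p = 0.123 by edgeR), and Rpl27 and Rpl32 had 0.42 and 0.40. At the other end were Rpl7 at -0.10 and Rpl8 at -0.07, neither of which passed.

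RPL5 and RPL11 form a particle with 5S ribosomal RNA, which binds MDM2 when ribosome assembly is disturbed. Rpl5 had 1491, 1211 and 1080.2 CPM in E861A 6, 16 and 19, against 1094.5, 1208 and 1169.8 CPM in wild type 2, 15 and 17. The wild-type values lay within the range of the E861A values, and the log2 fold change was 0.12 (SE 0.17, adjusted p = 0.710 by edgeR). Rpl11 averaged 1035 ± 84 CPM in E861A livers and 930.4 ± 77.2 CPM in wild-type livers, a log2 fold change of 0.15 (SE 0.15, adjusted p = 0.586 by edgeR), and its groups also overlapped. Beside 12% of all genes, 1 of 4 tested genes passed in the short list around this particle's effect on p53. This was Cdkn1a, a cell cycle inhibitor and p53 target, at 83.8 ± 14.1 CPM in E861A livers and 7.36 ± 1.97 CPM in wild-type livers (log2 fold change 3.51, SE 0.24). Trp53 at 0.41 and Mdm2 at 0.34 did not pass.

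In the small subunit the median log2 fold change was 0.20, with 27 of 31 genes positive (87.1%, beside 53.3% of all genes), 0 past the test (beside 12%) and 7 not overlapping with E861A above (22.6%, near the 19.4% of all genes). Rps19 (ENSMUSG00000040952, chr7:25669390-25674825, plus strand, NCBIM37), whose human counterpart is the gene most often mutated in Diamond-Blackfan anaemia, had the highest log2 fold change of the subunit. It had 1157, 1243 and 1016 CPM in E861A 6, 16 and 19, against 708.6, 884.5 and 848.0 CPM in wild type 2, 15 and 17. The groups did not overlap, and the log2 fold change was 0.49 (SE 0.16, adjusted p = 0.0975 by edgeR).

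Rps14, whose human counterpart lies in the deletion of a myelodysplastic syndrome with anaemia, had 1110.2, 933.7 and 831.4 CPM in E861A 6, 16 and 19, against 666.3, 810.3 and 798.3 CPM in wild type 2, 15 and 17. E861A was above wild type in all pairs, by little for E861A 19, and the log2 fold change of 0.34 (SE 0.17) did not pass (adjusted p = 0.252 by edgeR).

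Rps3a (ENSMUSG00000028081, chr3:85941862-85946624, minus strand, NCBIM37), the small-subunit gene with the lowest log2 fold change of all core genes, had 1704, 1179 and 1113 CPM in E861A 6, 16 and 19. Its wild-type values were 1391, 1553 and 1489.9 CPM in livers 2, 15 and 17. E861A 6 was the highest and the other two E861A livers the lowest, so the groups overlapped (-0.15, SE 0.20, adjusted p = 0.695 by edgeR). Rps15a showed the same high value in E861A 6, at 1081 CPM, against 725.0 and 657.6 CPM in E861A 16 and 19 and 695.1 to 718.3 CPM in wild-type livers.

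The P stalk recruits the elongation factors to the large subunit. Its base, Rplp0 (ENSMUSG00000067274, chr5:116009476-116013736, plus strand, NCBIM37), had 3225, 2519.7 and 2196 CPM in E861A 6, 16 and 19, against 2316, 3089.7 and 3048 CPM in wild type 2, 15 and 17. High and low values occurred in both genotypes (log2 fold change -0.09, SE 0.20, adjusted p = 0.837 by edgeR). Rplp1 and Rplp2, the acidic proteins that hang from it, had positive log2 fold changes of 0.21 (SE 0.20) and 0.25 (SE 0.17) and did not pass. The sign for Rplp0 turned with sex as a covariate, to 0.19, with an adjusted p of 0.707 by edgeR.

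As a portion of the reads in all core genes, Rplp0 took 3.64%, 3.11% and 3.17% in E861A 6, 16 and 19, against 3.73%, 4.04% and 4.15% in wild type 2, 15 and 17. Rps3a took 1.92%, 1.45% and 1.605% in E861A livers, against 2.24%, 2.03% and 2.03% in wild-type livers. Rps19 took 1.31%, 1.53% and 1.47% in E861A livers, against 1.14%, 1.16% and 1.15% in wild-type livers. For each of these genes the 2 genotypes did not overlap on this scale, with Rplp0 and Rps3a lower and Rps19 higher in E861A livers. The genes were named from their values and no test was made.

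Of the 20 mouse counterparts of human Diamond-Blackfan anaemia genes, 0 passed the test, 18 were positive and the median log2 fold change was 0.20, beside 0.21 for all core genes and with 12% of all genes called. Groups did not overlap, with E861A above, for 7 (35%, beside 26.3% of all core genes and 19.4% of all genes): Rps19, Rpl27, Rps20, Rpl26, Rpl18, Rps27 and Rps28. The 4 X-linked core genes, of interest because the E861A livers were all male, were Rps4x at 0.02, Rpl10 at 0.12, Rpl36a at -0.04 and Rpl39 at 0.26 on the log2 fold scale, with a median of 0.07, beside 0.21 for the 72 autosomal genes. All 4 overlapped between the genotypes.

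Some ribosomal protein genes lie outside the symbol rule. Fau, whose product carries the small-subunit protein RPS30, had 688.3, 744.5 and 590.3 CPM in E861A 6, 16 and 19, against 384.2, 532.1 and 513.4 CPM in wild type 2, 15 and 17. Its groups did not overlap, and the log2 fold change was 0.50 (SE 0.18, adjusted p = 0.119 by edgeR). Gnb2l1, which encodes the small-subunit scaffold RACK1, had a log2 fold change of 0.17. Neither passed.

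Of the 6 paralogues tested, 3 had positive log2 fold changes, the median was 0.04 and 0 passed. Rpl7l1 (ENSMUSG00000063888, chr17:46910856-46919605, minus strand, NCBIM37), related to Rpl7 and active in ribosome assembly, had 151.1, 123.5 and 122.3 CPM in E861A 6, 16 and 19, against 143.9, 179.7 and 166.9 CPM in wild type 2, 15 and 17. E861A 6 lay above wild type 2, so the groups overlapped (log2 fold change -0.31, SE 0.16, adjusted p = 0.255 by edgeR). Rps4y2 (ENSMUSG00000063171, chr6:148303178-148304120, plus strand, NCBIM37), which RefSeq names Rps4l and classes as a transcribed pseudogene, had 79.4, 66.8 and 62.2 CPM in E861A 6, 16 and 19. Its wild-type values were 55.2, 48.0 and 49.8 CPM in livers 2, 15 and 17. It was the only tested paralogue whose groups did not overlap (0.45, SE 0.14, adjusted p = 0.0865 by edgeR).

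Rps27l, a paralogue of Rps27 known in human cells as a p53 target, had 179.1, 119.0 and 102.4 CPM in E861A 6, 16 and 19, against 111.8, 134.2 and 128.0 CPM in wild type 2, 15 and 17. E861A 6 stood apart from the other livers, and the log2 fold change was 0.10 (SE 0.22, adjusted p = 0.834 by edgeR). Rpl22l1, whose level RPL22 is known to restrain, averaged 219.5 ± 38.6 CPM in E861A livers and 223.7 ± 16.7 CPM in wild-type livers, and Rpl22 itself 531.4 ± 86.3 and 453.7 ± 18.6 CPM. Their log2 fold changes were -0.03 and 0.23. Rpl36al had 0.35 (SE 0.17, adjusted p = 0.221 by edgeR), and since its protein is nearly that of Rpl36a, reads of the pair may have been shared.

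Rpl39l, a testis paralogue of Rpl39, had 1.70, 1.64 and 1.42 CPM in E861A 6, 16 and 19, against 1.26, 1.56 and 4.03 CPM in wild type 2, 15 and 17. Wild type 17 alone was high, and the log2 fold change was -0.52 (SE 0.46). Rpl3l, a paralogue of Rpl3 in heart and skeletal muscle, had 4, 11 and 10 reads in E861A 6, 16 and 19 and 2, 10 and 4 reads in wild type 2, 15 and 17. Rpl10l, a testis retrogene of Rpl10, had 1 read in E861A 16 and none in the other livers. These 2 were not tested.

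Among the 55 -ps entries, 9 had no read in any library and the most abundant, Rpl10-ps3, had 2985 reads in all. Of the 13 tested, 9 had positive log2 fold changes, the median was 0.12 and 0 passed. These entries are near-copies of core genes, so that reads counted to them, and reads lost from their parents, depend on how the authors' counting treated reads that match several places. Parents with many such entries in the counts table include Rpl21 with 14, Rps19 and Rpl30 with 9 each, and Rpl23a with 7. Adding all Rpl and Rps pseudogenes of the table to the members gave a share of 8.23 ± 0.78% in E861A livers and 6.97 ± 0.19% in wild-type livers. Rps19bp1 averaged 29.9 ± 2.5 CPM in E861A livers and 26.2 ± 4.4 CPM in wild-type livers, which overlapped.

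Levels can be compared between genes only per length, and on that scale the core genes were among the most abundant transcripts of the liver. The mean over 6 livers had a median of 1272 CPM per kilobase of annotated transcript over the 76 core genes (quartiles 977.3 and 1531), beside 6.68 CPM per kilobase over all genes tested. Of the 100 genes with the highest level per kilobase, 60 were core genes, and of the top 200, 72 were. The highest were Rplp1 at 3194, Rps12 at 3002, Rpl32 at 2097, Rps23 at 2041 and Rplp0 at 2012 CPM per kilobase.

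Although ribosomal proteins enter the ribosome in equal numbers, apart from the P stalk, the levels per kilobase spanned 25.9-fold. The lowest were Rpl24 at 123.4, Rpl35 at 206.9, Rpl23a at 259.8, Rps20 at 268.5 and Rpl37 at 538.8 CPM per kilobase. For Rpl24 and Rps20 the annotated transcript used was long, at 4999 and 3706 bases, which lowers the value. Rpl23a has the 7 pseudogene entries given above. The parents named there with more entries, Rpl21, Rpl30 and Rps19, had 1148, 1033 and 760.3 CPM per kilobase. How far annotated length and shared reads set the order was not tested.

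**Figure D3:**
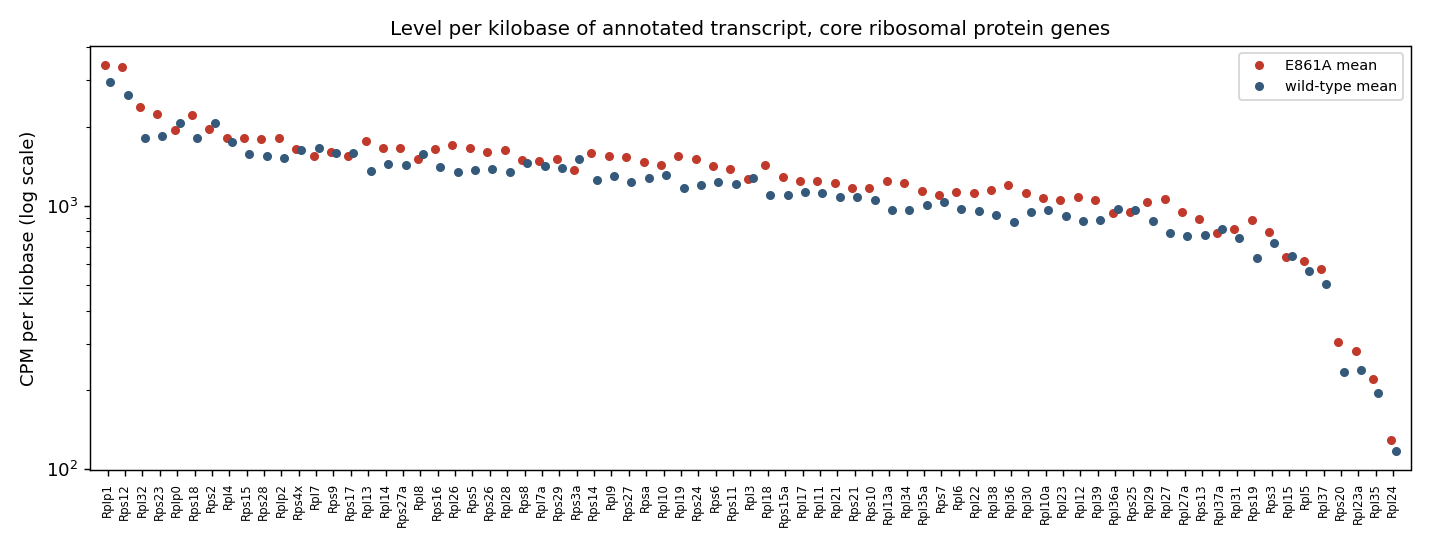
Core genes reported here run along the horizontal axis from the highest to the lowest mean level per kilobase, and the vertical axis gives CPM per kilobase on a log scale, with the E861A mean left of the wild-type mean for each gene (n = 3 each). Most genes lie between about the quartiles of 977.3 and 1531, Rplp1 and Rps12 reach 3194 and 3002 in the mean over 6 livers, and Rps20, Rpl23a, Rpl35 and Rpl24 are far below the rest.

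Within a genotype the core genes had lower coefficients of variation than the median gene. Their median coefficient of variation over livers was 12.4% in E861A and 10.5% in wild type, beside 17.5% and 16.7% for all genes tested and 13.1% and 14.0% for the 2190 genes of 100 CPM or more.

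A feature of the gene structure was also more frequent among the core genes than among all genes. Small nucleolar RNAs, which guide the modification of ribosomal RNA, are processed from introns, and 30 of the 76 core genes (39.5%) held annotated ones, 58 in all, with 5 in Rpl4. Over all protein-coding genes tested, 248 of 14885 (1.67%) held one. The 76 core genes lie on 19 chromosomes.

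The editing table gives another readout for these genes, the conversion of adenosine to inosine, which is read as guanosine. ADAR1 edits double-stranded RNA, which in mouse untranslated regions often forms between inverted copies of B1 repeats. Of the 6012 sites in the table, 19 were listed under 4 members: 16 under Rpl7l1 and 1 each under Rps24, Rpl5 and Rps2. The member sites that passed the test all lay in Rpl7l1, and the values from here count reads summed over the 3 livers of a genotype. Among sites with at least 10 such reads per genotype, 647 of 3883 (16.7%) were lower in E861A and 6 (0.155%) higher by Fisher's exact test with Benjamini-Hochberg adjustment. The summed reads leave the spread between livers out of that test, and intervals cover counting error only.

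The Rpl7l1 sites span 183 bases of the 3′ untranslated region, whose annotated exon is chr17:46910856-46912685 (minus strand, NCBIM37). Of the 16, 3 passed, all lower in E861A, and they lie within 8 bases of each other. The stretch around them, with the 3 adenosines in capitals, reads as follows.

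Rpl7l1 (chr17:46911867-46911896, minus strand, NCBIM37): gggggagcacAcctttAAtcccagcactcg

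Position 46911880, the first A of the adjacent pair, was edited in 1 of 701 reads (0.143%, 95% Wilson interval 0.0252 to 0.804) of E861A livers and in 69 of 795 reads (8.68%, 6.92 to 10.8) of wild-type livers. By liver these were 0%, 0.549% and 0% in E861A 6, 16 and 19, against 5.04%, 12.2% and 9.16% in wild type 2, 15 and 17. Every wild-type liver was far above every E861A liver, and Fisher's exact test gave an adjusted p of 5.82e-17.

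Position 46911879, the A that follows it, was edited in 2 of 698 reads (0.287%, 0.0786 to 1.04) of E861A livers and in 56 of 790 reads (7.09%, 5.50 to 9.09) of wild-type livers. It had 0.345%, 0.556% and 0% in E861A 6, 16 and 19, against 3.97%, 8.30% and 9.23% in wild type 2, 15 and 17. The livers separated as at its neighbour, with wild type 2 the lowest of the wild type (adjusted p = 2.97e-12, Fisher's exact test).

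Position 46911886, the first capital, was edited in 0 of 736 reads of E861A livers, for which 3 reads would be 0.408% and the 95% Wilson upper limit is 0.519%, and in 17 of 817 reads (2.08%, 1.30 to 3.31) of wild-type livers. Wild type 2, 15 and 17 had 1.41%, 3.07% and 1.83%, so that all 3 wild-type livers had edited reads and no E861A liver did (adjusted p = 0.000232, Fisher's exact test). The next site, 46911871, had 0 of 603 reads in E861A livers and 7 of 685 (1.02%) in wild-type livers and did not pass (adjusted p = 0.0866, Fisher's exact test). At each of the other 12 sites the level was at most 0.266% in either genotype.

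**Figure D4:**
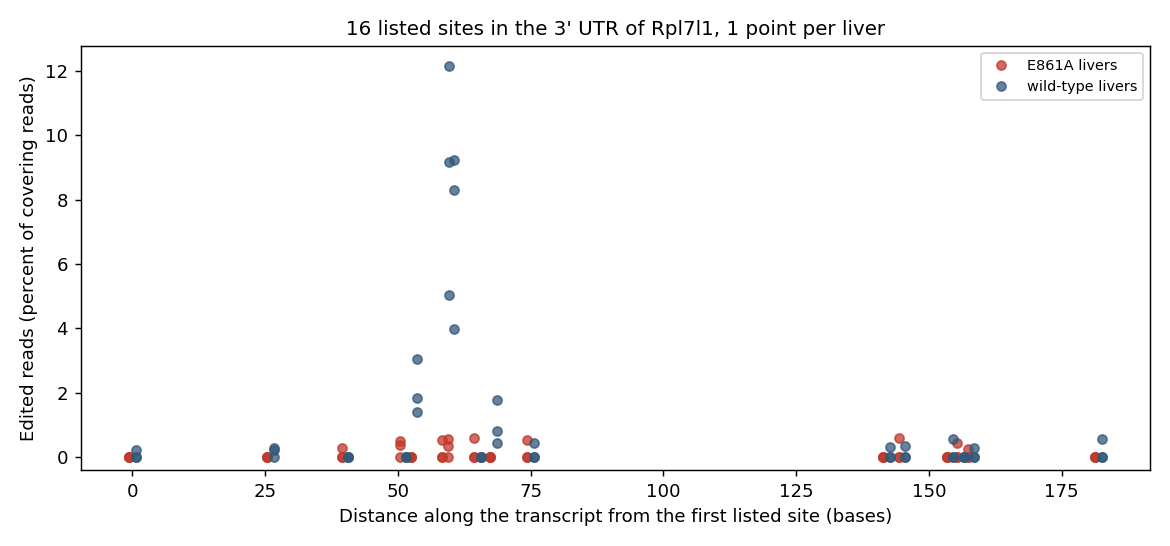
The vertical axis gives edited reads as a percent of covering reads for each liver, and the horizontal axis the distance in bases from the first of the 16 listed sites along the Rpl7l1 transcript; E861A points are drawn just left of wild-type points at each site. The adjacent pair of sites reaches 12.2% in wild-type livers and stays at or below 0.556% in E861A livers, and most other sites are near 0 in both genotypes.

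The last 18 bases of the printed stretch occur 1022 times on chromosome 17 over both strands, so the sequence is repeated in the genome, and how reads were placed among such copies was not tested. The Rps24 site had 1 of 64 reads edited in E861A livers and 7 of 88 in wild-type livers (adjusted p = 0.415, Fisher's exact test). The authors' table places it in a 3′ untranslated region. Its position, 25315612, lies past the end of Rps24 in GENCODE M1, which is 25315368. The intronic site of Rpl5 had 0 of 86 and 4 of 89, and that of Rps2 0 of 348 and 2 of 312, in E861A and wild-type livers, and neither passed.

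The other lists of the translation machinery had medians near or below 0. Of 39 initiation factors 0 rose and 2, Pabpc4 and Eif2s3x, fell, with a median log2 fold change of -0.18; of 10 elongation factors and nascent-chain chaperones 0 rose and 1, Eef2k, fell (-0.06). Of 55 ribosome assembly factors 0 rose and 1, Gnl3l, fell (-0.08), and of 14 genes of RNA polymerase I and its factors 0 passed (-0.17; unadjusted p under 0.05 for 3 by edgeR). Of 75 mitochondrial ribosomal protein genes 1, Mrpl30, rose and 2, Mrpl34 and Mrps21, fell (0.02). These counts stand beside 7.77% higher and 4.26% lower of all genes. The levels of these lists also differed among the wild-type livers. Initiation factors had a mean log2 level (CPM plus 1) of 8.01, 7.87 and 7.76 in E861A 6, 16 and 19. Wild type 2, 15 and 17 had 7.85, 8.30 and 8.17. For the assembly and RNA polymerase I lists wild type 2, the male wild-type liver, lay below every E861A liver. The part of sex in these medians was not tested.

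The genes of these lists that passed were picked by the test, so the size of their fold changes is not compared with that of the core genes. Pabpc4, a poly(A)-binding protein, averaged 395.6 ± 51.5 CPM in E861A livers and 946.4 ± 230.7 CPM in wild-type livers (-1.26, SE 0.22, adjusted p = 0.0103 by edgeR). Eef2k, the kinase that inhibits elongation factor eEF2, averaged 51.6 ± 6.3 CPM in E861A livers and 131.8 ± 41.1 CPM in wild-type livers (-1.35, SE 0.23, adjusted p = 0.0102 by edgeR). Both calls were lost with sex as a covariate, at adjusted p = 0.0952 and 0.105 by edgeR. Also lost in that fit were the calls of Eif2s3x (0.409), Gnl3l (0.133), Mrpl34 (0.142) and Mrps21 (0.216). Eif2s3x had 280, 168.0 and 175.4 CPM in E861A 6, 16 and 19, all male. Wild type 2, also male, had 296.0 CPM, and the female wild type 15 and 17 had 622.7 and 551.8 CPM. The log2 fold change of Eif2s3x was -1.24, and -0.51 with sex as a covariate. Mrpl30, of the mitochondrial large subunit, averaged 160.0 ± 22.5 CPM in E861A livers and 69.8 ± 7.3 CPM in wild-type livers (1.20, SE 0.16, adjusted p = 0.00322 by edgeR), and was lost among male livers alone (adjusted p = 0.0762 by edgeR).

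In a list of genes that control ribosome output through mTORC1 and MYC, 4 of 18 rose and 1 fell. Over all genes 7.77% were higher and 4.26% lower. The list had a median log2 fold change of -0.04. Sesn2, a stress-induced inhibitor of mTORC1, had 72.4, 82.7 and 62.2 CPM in E861A 6, 16 and 19, against 18.7, 22.7 and 27.2 CPM in wild type 2, 15 and 17 (1.66, SE 0.18, adjusted p = 0.0013 by edgeR). Eif4ebp1, the mTORC1 substrate that holds back cap-dependent initiation, had 127.6, 158.8 and 114.1 CPM in E861A livers, against 42.1, 59.8 and 65.6 CPM in wild-type livers (1.26, SE 0.21, adjusted p = 0.00827 by edgeR). For both genes all E861A livers lay above all wild-type livers, and both passed in each of the 15 alternatives run. Ddit4, another mTORC1 inhibitor, and Myc rose too, by 2.16 and 0.73 on the log2 scale, and Eif4ebp2 fell by 0.93. The call of Ddit4 was lost with sex as a covariate (adjusted p = 0.0742 by edgeR).

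**Figure D5:**
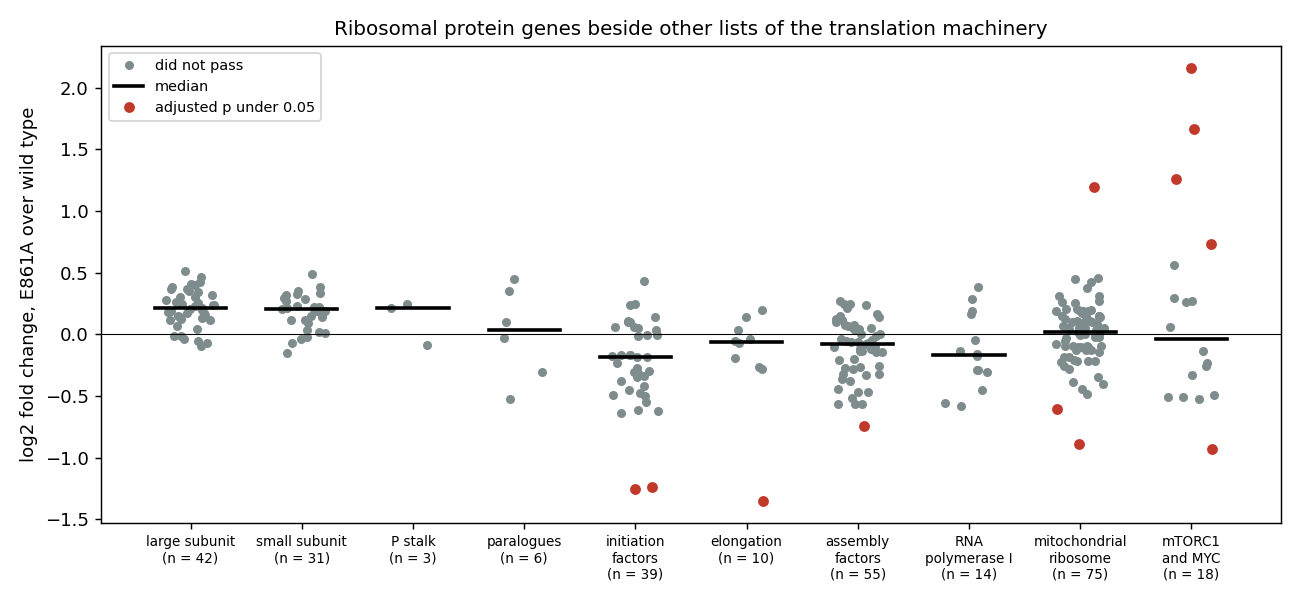
Each point is the log2 fold change (E861A over wild type, vertical axis) of a tested gene, with lists along the horizontal axis, black bars at the medians and red points for genes with an adjusted p under 0.05. Large and small subunit and P stalk sit in narrow bands with medians of 0.21, 0.20 and 0.21 and no red point, while initiation factors have a median of -0.18.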

How the data were processed

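Fetal liver RNA of 3 E861A and 3 wild-type embryos was sequenced. The gene table holds raw counts deposited by the authors, whole reads per Ensembl gene on NCBIM37; strand use in counting is not given in the sources used here. The site table holds coverage and editing levels as a fraction of reads, deposited by the authors, from which edited reads were recovered (largest distance from a whole number 2.3e-06). The authors' deposited log2 fold changes and p-values run, per the file headers, as wild type minus the mutant, and their sign was turned. Per the submitters' processing notes, HTSeq, limma, edgeR, Cufflinks, TopHat2 2.0.8, BWA, Trimmomatic 0.30, Bowtie2 2.1.0.0 and SAMtools 0.1.19 were used, in no stated order. The deposited normalised counts are the raw counts times a constant per library and were not used.

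Genes were fitted here in edgeR 4.0.16 (R 4.3.3; filterByExpr, TMM, robust quasi-likelihood) over all 16511 genes that passed the filter, with Benjamini-Hochberg adjustment and a threshold of 0.05; the steps were tested on simulated data. DESeq2 1.42.0 and limma 3.58.1 (voom) were alternatives, beside other scalings, filters, sex as a covariate, male livers alone and leaving out each liver. Fisher and permutation tests used SciPy 1.17.1. Transcript lengths are those of the GENCODE M1 transcript with the longest coding sequence and, in ties, the shortest transcript, a rule set after lengths were seen. Genes named are paralogues, X-linked genes, the P stalk, Rpl5, Rpl11, Rps14, Rps19, the 5 highest and 5 lowest per kilobase, and up to 3 of smallest p in each other list; those at the ends of a range were named after their values were seen. Single values of some genes are not reported here. The members and lists were chosen with earlier results of these data known.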

Additional observations from a re-analysis of the deposited data

How the results depend on the processing

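The count of ribosomal protein genes higher in E861A was 0 with DESeq2 size factors, no filter, limma-voom and male livers alone; it was 10 with library totals, 2 with upper-quartile factors, 1 with a minimum of 1 CPM in 3 libraries, 1 in DESeq2 and 1 with sex as a covariate (Rps12-ps3); the cause was not tested. No setting called a member lower. Leaving out each liver in turn gave 0 to 0 higher and 0 to 0 lower, a core median log2 fold change of 0.12 to 0.28, a difference in share of 0.877 to 1.66 percentage points and 3 to 4 edited sites. Among single named genes no alternative reversed a call, but several calls were lost in some of the 15 alternatives. Eif2s3x passed in 8, Mrps21 in 9, Gnl3l and Mrpl34 in 10 each, Ddit4 in 11, and Eef2k and Pabpc4 in 12 each. Adar, Cdkn1a, Sesn2 and Eif4ebp1 passed in all 15. No paired analysis was possible because E861A and wild-type livers have no replicate number in common. Sex and genotype overlap only in part, and with 3 livers each an exact permutation test cannot go below p = 0.1.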

Other observations

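The genes outside the family whose level over the 6 livers was most like the mean of the members were Psat1, a serine synthesis enzyme, Etfb of electron transfer, Sdf4 of the Golgi, Lars, the leucyl-tRNA synthetase, and Sod1, a superoxide dismutase. Their Pearson r with the members' mean log2 level was 0.994, 0.994, 0.992, 0.991 and 0.988 among 2110 genes of 100 CPM or more, as a description over 6 libraries that share depth and scaling. Psat1 had 487.6, 428.0 and 322.9 CPM in E861A 6, 16 and 19, against 278.1, 366.4 and 337.2 CPM in wild type 2, 15 and 17. Like most core genes it was highest in E861A 6 and lowest in wild type 2, and none of these genes passed the edgeR test.

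Globin reads made up 3.16 ± 0.08% of counted reads in E861A livers and 3.46 ± 1.03% in wild-type livers, and reads of the mitochondrial genome 3.08 ± 0.49% and 3.39 ± 0.15%. Without globin reads in the total, the members held 8.49 ± 0.81% in E861A livers and 7.21 ± 0.16% in wild-type livers. On nuclear genome reads alone they held 8.48 ± 0.77% in E861A livers and 7.20 ± 0.21% in wild-type livers.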
